A study of Mus musculus with 42 samples.

Results

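The comparison was between uterine tissue-resident NK (trNK) cells cultured for 72 h with IL-21 and the same kind of cells cultured for 24 h with IL-21, with 2 bulk RNA-Seq libraries in each group. The 4 libraries were chosen by their labels alone, as all libraries of both groups. They belong to a time course of 16 libraries, sampled at 4 times from 0 to 72 h in cultures that held IL-21 or lacked it, among 42 samples of the series given here. Every gene with an RPKM (a count scaled for gene length and for the total count of the library) above 10 in both libraries of any of the 8 time course groups was compared, which left 3503 of 54446 annotated genes. The cells came from the uterus of WT mice at gd6.5 (gestation day 6.5), by the study's methods sorted cells of young adult C57BL/6 females, here of the trNK-V subset, and carried no genetic change. The methods gate trNK cells as live cells positive for CD45, NK1.1, NKp46 and CD49a and negative for lineage markers and CXCR6. All groups of the time course, those without IL-21 included, received IL-15, and the cells were kept in RPMI-1640 with 10% fetal bovine serum. The treatment labels of the 4 libraries give 10 ng/ml IL-15 with 20 ng/ml IL-21, whereas the protocol text in the labels gives 15 ng/ml IL-15. The question addressed was how transcription in trNK cells under IL-21 moved between the first and the third day of culture.

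IL-21 is a cytokine of activated T cells that binds a receptor made of IL-21R and the common gamma chain and signals mainly through JAK1, JAK3 and STAT3. IL-15 shares the common gamma chain and sustains the survival and proliferation of NK cells through STAT5. Decidual NK cells proliferate early in pregnancy and then accumulate cytotoxic granules, so genes of DNA synthesis, of protein production and of granule contents are those usually read to follow their maturation.

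The libraries at 24 h with IL-21 held 36687322 and 30629096 counts and those at 72 h held 36582590 and 28541369 counts, within a range of 28541369 to 66468883 over the time course. Replicate 2 at 72 h with IL-21 stood apart from replicate 1. It had a count in 12004 genes against 14004 in replicate 1. Its 50 highest genes took 46.4% of its counts against 35%. In it, 61 of the tested genes had 0 counts, against 10 in replicate 1 and 1 in each library at 24 h. Spearman's correlation between replicates, across tested genes, was 0.878 at 72 h and 0.972 at 24 h. Between replicates 1045 tested genes differed by more than 2-fold at 72 h against 47 at 24 h. Both libraries at 72 h without IL-21 had still fewer genes, 10728 and 11671. Mitochondrial genes took 2.28% and 2.80% of the counts at 24 h and 4.37% and 5.73% at 72 h with IL-21. The part that RNA quality or cell survival had in these shares was not tested. Nothing in the labels says that the 2 libraries of a group came from separate cultures or animals, so the spread behind the p-values may be technical. That spread was estimated over all 16 libraries of the time course, whereas the 72 h pair with IL-21 lay farther apart than the 24 h pair. A fit that leaves out 1 library of a group takes its spread from the other groups.

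**Figure D1:**
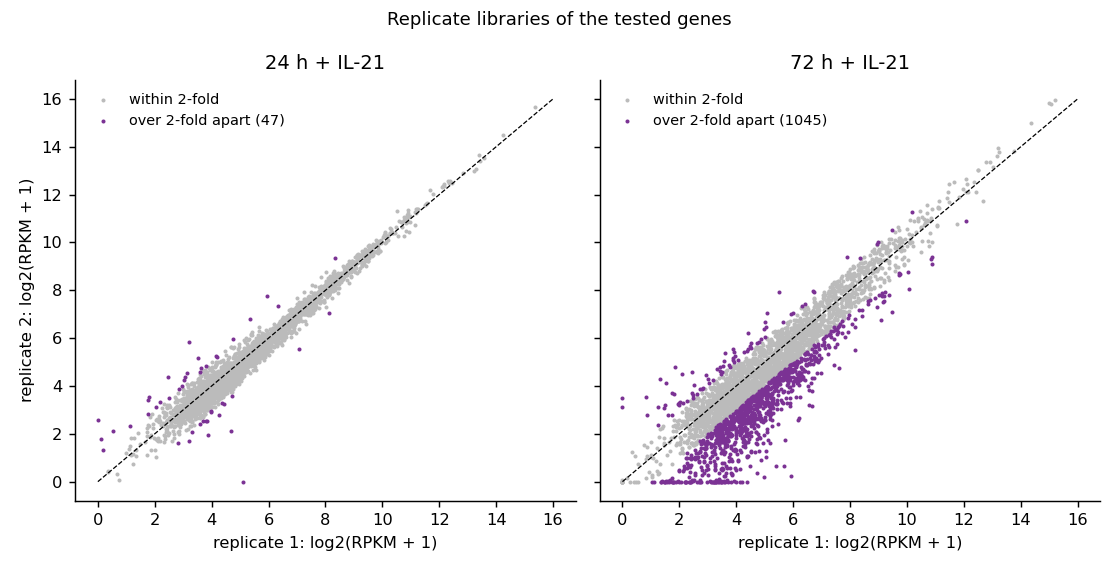
Level of each of the 3503 tested genes in replicate 1 (horizontal axis) against replicate 2 (vertical axis), both as log2(RPKM + 1), at 24 h and at 72 h with IL-21. The dashed line marks equal levels, and the 47 genes at 24 h and the 1045 genes at 72 h that differed by more than 2-fold are in purple, most of the latter below the line.

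The libraries carried the transcripts of NK cells at both times. All 12 markers of NK cell and ILC identity had counts in each of the 4 libraries, and Ncr1, the NKp46 receptor, was at 684 and 668 RPKM at 24 h and 948 and 674 RPKM at 72 h. Ly6a, an interferon- and STAT-responsive surface antigen, served to check the treatment. It was at 1103 and 1259 RPKM at 24 h and 797 and 840.5 RPKM at 72 h with IL-21. Without IL-21 it was at 6.68 and 1.96 RPKM at 24 h and 10.4 and 0 RPKM at 72 h. The markers of conventional NK cells and of ILC1, the relatives of trNK cells, were higher at 72 h as sums. Those of 10 conventional NK markers were at 2199 and 2530 RPKM at 24 h and 13940 and 19680 RPKM at 72 h, with 3 of 4 tested members (Ccl5, Klra8 and Klra4) called higher. Ccl5, Klra8 and Klra4 made up nearly all of this sum. Without IL-21 the sum was at 4163 and 4417 RPKM at 24 h and 7658 and 9297 RPKM at 72 h. S1pr5 of that list had 0 counts in all 4 libraries, and Klf2 in both 72 h libraries. Those of 8 ILC1 markers were at 81.9 and 74.3 RPKM at 24 h and 714 and 291 RPKM at 72 h, with 1 of 3 tested members (Ltb) called higher. Cxcr6, a chemokine receptor of the ILC1 list, was at 21.2 and 16.7 RPKM at 24 h and 106 and 87.8 RPKM at 72 h (adjusted p = 0.0638). Ltb and Cxcr6 made up most of the ILC1 sum. Without IL-21 that sum was at 204 and 191 RPKM at 24 h and 545 and 222 RPKM at 72 h. Lists for other cells held both genes at 0 and genes with counts. Cd79b and Ms4a1 of B cells, Cd3e, Cd8b1 and Cd5 of T cells, and Csf1r, Adgre1, C1qa and C1qb of macrophages had 0 counts in both 72 h libraries. The summed markers of stromal and decidual cells were between 0.0105 and 0.0727 RPKM, those of trophoblast at most 0.168 RPKM and those of neutrophils at most 0.516 RPKM. The summed T cell markers were at 1156 and 1187 RPKM at 24 h and 1922 and 1704 RPKM at 72 h, and 2 of 6 tested members (Cd3g and Trbc1) were called higher. The summed B cell markers were at 94.0 and 80.8 RPKM and 272.5 and 98.8 RPKM, with Ighm as the 1 tested member, called higher. Antigen receptor loci and CD3 chains can be transcribed in NK cells as well. The macrophage and monocyte list, whose sum came from Ccr2 and Cd68, was at 207 and 206 RPKM at 24 h and 297 and 299 RPKM at 72 h with 0 of 2 tested members called. The part of such cells in the changes was not tested. Cd3g was at 44.6 and 48.1 RPKM at 24 h and 123 and 125 RPKM at 72 h. Ighm, the immunoglobulin mu constant region, was at 91.3 and 78.6 RPKM at 24 h and 268 and 95.4 RPKM at 72 h.

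At 72 h, some of the genes of the cell cycle, of ribosome assembly and of protein folding were called lower, and some of the NK cell receptors with their adaptors, the chemokine Ccl5 and some of the interferon-inducible genes were called higher. Of the 3503 genes, 307 (8.76%) were called higher and 211 (6.02%) lower at 72 h, together 14.8%. A call required an adjusted p below 0.05, by edgeR's quasi-likelihood test with Benjamini-Hochberg adjustment, and a fold change above 2. The libraries of both groups did not overlap for 510 of these 518 genes, in a table where 64% of all tested genes did not overlap. The median log2 fold change over all genes was 0.003 on the TMM scale, which centres most genes on no change. On plain total counts the median was -0.35, a shift that differed in size from gene to gene, and the split became 150 higher and 358 lower (29.5% of calls higher against 59.3%). Without replicate 2 at 72 h, 167 genes were called higher and 179 lower, and without replicate 1, 396 and 466. Without 24 h replicate 1 these were 90 and 109, without 24 h replicate 2 they were 102 and 104, and a fit of only the 4 libraries compared gave 25 and 43. A core of 156 genes, 68 higher and 88 lower, was called whichever of the 4 libraries was left out. Fewer cells of a type and less RNA per cell cannot be told apart in such bulk libraries.

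**Figure D2:**
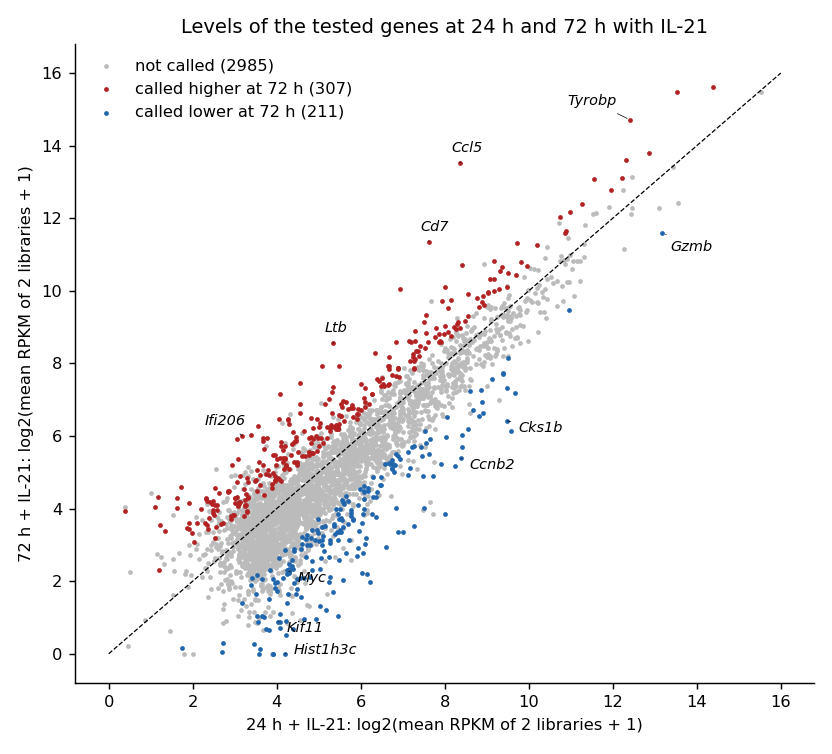
Mean level of each tested gene at 24 h (horizontal axis) and 72 h (vertical axis) with IL-21, as log2(mean RPKM of 2 libraries + 1), with 307 genes called higher in red, 211 called lower in blue and the rest in grey. Ccl5, Cd7 and Ltb lie farthest above the dashed line of equal levels among the genes labelled, and cell cycle and histone genes lie below it.

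The tested genes were also read as 26 gene lists by function. Counts of called members given below stand against 8.76% called higher and 6.02% called lower among all tested genes. Counts for the cultures without IL-21 stand against 4.97% called higher and 9.82% called lower. The lists with the lowest medians were mitosis (median log2 fold change -2.50 over 24 tested genes) and DNA replication (-2.46 over 30). Heat shock and chaperones (-1.24 over 20), cholesterol and fatty acid synthesis (-1.18 over 10), ribosome biogenesis and Myc targets (-1.17 over 22), glycolysis and hypoxia (-1.14 over 10), the amino acid response (-1.10 over 11) and the endoplasmic reticulum stress response (-0.99 over 21) followed. Those with the highest medians were cytokines and chemokines (1.47 over 11), interferon-stimulated genes (1.08 over 20) and NK cell receptors (1.06 over 38). Structural lists lay close to the median of all genes, with -0.11 for 75 cytosolic ribosomal proteins and 0.12 for 73 respiratory chain genes on the TMM scale, which became -0.50 and -0.28 on plain total counts. Single libraries moved some medians. That of glycolysis and hypoxia was -0.49 without 72 h replicate 2 and -1.66 without 72 h replicate 1.

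**Figure D3:**
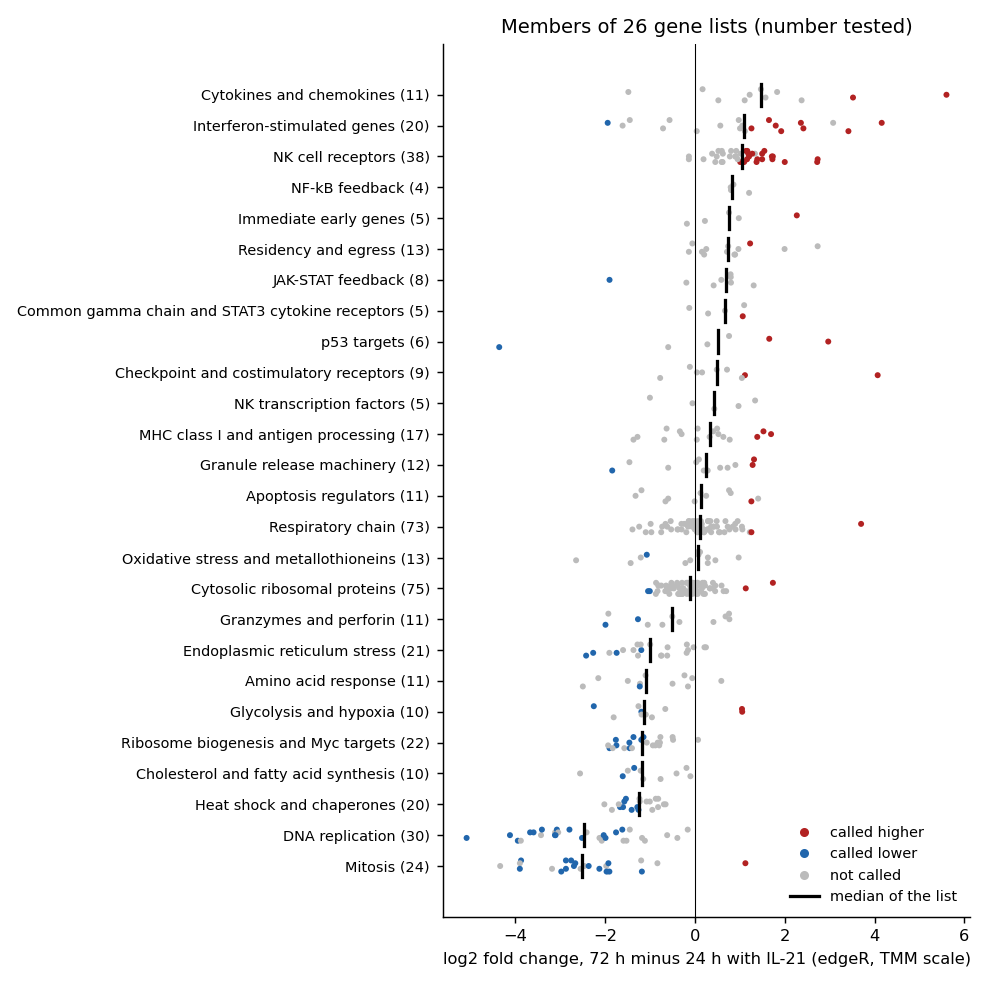
Log2 fold change (72 h minus 24 h with IL-21, edgeR on TMM-scaled counts) of each tested member of 26 gene lists, 1 point per gene, with red for genes called higher, blue for genes called lower, grey for the rest and a black bar at the list's median. Mitosis and DNA replication lie lowest, at medians of -2.50 and -2.46, and cytokines and chemokines highest, at 1.47.

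A part of the DNA replication genes was lower at 72 h. Of 47 genes in the list 30 were tested, 15 were called lower and 0 higher, against 6.02% of all genes called lower, and all 30 log2 fold changes were below 0. Gins2, a subunit of the helicase that opens DNA at the replication fork, was at 19.3 and 15.9 RPKM at 24 h and 0.787 and 0.941 RPKM at 72 h (log2 fold change -3.94 ± 0.47 SE, adjusted p = 3.71e-04). Each 72 h library was below both 24 h libraries by a wide margin, and the call held whichever of the 4 libraries was left out. Lig1, the ligase that joins Okazaki fragments, was at 17.8 and 17.6 RPKM at 24 h and 0.788 and 0.0985 RPKM at 72 h (log2 fold change -5.08 ± 1.32 SE, adjusted p = 0.0214). Prim1, the catalytic primase subunit, was at 50.5 and 42.5 RPKM at 24 h and 5.12 and 1.02 RPKM at 72 h (log2 fold change -3.67 ± 0.88 SE, adjusted p = 0.0156). Rrm2, a subunit of ribonucleotide reductase, was at 114 and 77.8 RPKM at 24 h and 11.7 and 1.78 RPKM at 72 h (log2 fold change -3.59 ± 1.07 SE, adjusted p = 0.0379). Lig1, Prim1 and Rrm2 were lower in replicate 2 than in replicate 1 at 72 h, and neither library came near the 24 h level. Ccne2, cyclin E2, fell likewise from 33.5 and 40.0 RPKM to 4.91 and 0.952 RPKM (log2 fold change -3.40, adjusted p = 0.0252). The other tested members ranged up to a log2 fold change of -0.16. In all, 10 members kept their call whichever library was left out, and the number called lower ranged from 10 without replicate 2 to 21 without replicate 1 at 72 h.

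The genes of mitosis behaved alike. Of 45 listed, 24 were tested, 14 were called lower and 1 higher, and 23 of the 24 had a log2 fold change below 0. Without either 24 h library 8 were called lower. Ccnb2, cyclin B2, was at 358 and 309 RPKM at 24 h and 46.0 and 35.8 RPKM at 72 h (log2 fold change -2.66 ± 0.38 SE, adjusted p = 0.00142, ENSMUSG00000032218, chr9:70407692-70421547, minus strand on mm10). Kif11, the kinesin that separates the spindle poles, was at 16.3 and 14.3 RPKM at 24 h and 1.32 and 0.378 RPKM at 72 h (log2 fold change -3.90 ± 0.58 SE, adjusted p = 0.00171). Nusap1, a spindle microtubule protein, was at 61.8 and 57.9 RPKM at 24 h and 8.48 and 4.57 RPKM at 72 h (log2 fold change -2.87 ± 0.30 SE, adjusted p = 2.16e-04). All 3 were lower in both 72 h libraries. Kif11 was admitted to the test only through the 24 h libraries with IL-21, where it was high, so its fall is not independent of the filter. Cks1b, a cofactor of cyclin-dependent kinases and the most abundant of those named here, was at 684 and 754 RPKM at 24 h and 104 and 64.7 RPKM at 72 h (log2 fold change -2.75 ± 0.40 SE, adjusted p = 0.00115). Each of these 4 kept its call whichever library was left out. Ccna2, cyclin A2, was at 42.2 and 36.4 RPKM at 24 h and 3.84 and 0.704 RPKM at 72 h (log2 fold change -3.87, adjusted p = 0.016). Hmmr, a spindle protein, was at 18.9 and 17.9 RPKM at 24 h and 3.83 and 0.490 RPKM at 72 h (log2 fold change -2.87, adjusted p = 0.0149). Top2a, the topoisomerase that untangles chromosomes, was at 21.6 and 20.0 RPKM at 24 h and 3.04 and 1.26 RPKM at 72 h (log2 fold change -2.97, adjusted p = 0.0385) and lost its call when any 1 of the 4 libraries was left out. The exception, named after its value was seen, was Pttg1, securin, which is degraded as chromatids part and was higher at 72 h, with 62.9 and 64.3 RPKM at 24 h and 95.2 and 114 RPKM at 72 h (log2 fold change 1.12 ± 0.27 SE, adjusted p = 0.015). Its call held without 72 h replicate 1 but was lost when any other library was left out and on plain total counts. Mki67, the Ki-67 antigen, lay under the limit of RPKM for testing in 1 of its 24 h libraries, at 10.5 and 8.69 RPKM at 24 h and 2.36 and 0.944 RPKM at 72 h.

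Cell cycle genes are known to share promoter elements: CCAAT boxes bound by NF-Y, the CHR element bound by the DREAM and MuvB complexes in genes of mitosis, and E2F sites in genes of DNA replication. In RefSeq promoter windows of GRCm38.p6, from 250 bases before to 50 bases after the start, a window was found for 12 of the 14 mitosis genes called lower. Of these 12, 10 held CCAAT and 7 held a CHR element (TTTGAA or TTCGAA) on either strand, against 41.9% and 17% of the 2517 tested genes with a window and 38.0% and 19.5% of all 27024 genes with one. Of 11 windows of DNA replication genes called lower, 3 held an E2F site (TTTCCCGC or TTTGGCGC, either strand) against 3.77% of the tested genes. Other lists held these letters too. The CHR letters were in 4 of 7 windows of interferon-stimulated genes called higher, and the E2F letters in 2 of 7 windows of ribosome biogenesis genes called lower. A match is a run of letters and not a measured binding site. The 150 bases before the start of 4 genes called lower are printed to show these elements, with CCAAT, CHR and E2F letters on either strand in capitals. They lie, for Ccnb1 at chr13:100786487-100786636, minus strand, for Ccnb2 at chr9:70421555-70421704, minus strand, for Kif11 at chr19:37376232-37376381, plus strand, and for Mcm6 at chr1:128359706-128359855, minus strand. Ccnb1 and Mcm6 were chosen for this after their values were seen.
Ccnb1: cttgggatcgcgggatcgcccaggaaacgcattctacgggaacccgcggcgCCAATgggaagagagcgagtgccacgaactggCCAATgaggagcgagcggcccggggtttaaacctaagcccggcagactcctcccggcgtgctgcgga
Ccnb2: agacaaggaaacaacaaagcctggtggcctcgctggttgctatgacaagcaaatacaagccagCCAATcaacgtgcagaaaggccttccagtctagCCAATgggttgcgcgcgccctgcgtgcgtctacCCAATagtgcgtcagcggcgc
Kif11: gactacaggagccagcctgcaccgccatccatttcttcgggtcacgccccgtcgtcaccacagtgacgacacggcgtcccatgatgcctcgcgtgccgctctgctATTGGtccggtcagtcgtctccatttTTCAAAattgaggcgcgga
Mcm6: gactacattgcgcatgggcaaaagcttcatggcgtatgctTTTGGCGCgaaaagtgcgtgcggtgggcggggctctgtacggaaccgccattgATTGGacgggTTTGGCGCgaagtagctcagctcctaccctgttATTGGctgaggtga
Ccnb2 carried 3 CCAAT boxes, which began 87, 54 and 21 bases before the start, and Ccnb1 carried 2, at 99 and 67 bases. In Kif11 a CCAAT box lay 45 bases and a CHR element 19 bases before the start. Mcm6, a subunit of the replicative helicase, held 2 E2F sites at 110 and 47 bases and 2 CCAAT boxes. The level of Ccnb1, cyclin B1, was 54.3 and 43.8 RPKM at 24 h and 6.55 and 5.20 RPKM at 72 h (log2 fold change -2.69 ± 0.25 SE, adjusted p = 1.17e-04). That of Mcm6 was 22.4 and 17.1 RPKM at 24 h and 6.47 and 1.60 RPKM at 72 h (log2 fold change -2.03 ± 0.57 SE, adjusted p = 0.0302).

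Among genes with a name, histone genes of the chromosome 13 cluster were among those with the largest falls, and 4 of them had 0 counts at 72 h. Hist1h3c had 729 counts over both 24 h libraries (16.1 and 18.5 RPKM) and 0 counts in both 72 h libraries, which makes it at least 87.3-fold lower when 3 counts per library are allowed (adjusted p = 2.40e-04). On the same terms Hist1h3a was at least 59.5-fold (adjusted p = 1.17e-04), Hist1h2bk at least 53.5-fold (adjusted p = 3.06e-04) and Hist1h3g at least 46.7-fold lower (adjusted p = 4.21e-04). Hist1h3i had 309 counts at 24 h and 3 at 72 h, a ratio of 78.9 with a 95% exact counting interval of 26.8 to 385. Of 20 tested genes with a Hist symbol, a group read after its values were seen, 12 were called lower and 0 higher. Hist1h3g passed the filter only through the 24 h libraries with IL-21, so its fall and this tally are not independent of the filter. The Hist genes have near-identical copies and mRNAs that mostly lack a poly(A) tail, so the share of reads given to each copy is uncertain. Other large falls were in genes of the S and G2 phases. Cdca5, the cohesin protector sororin, was at 33.1 and 25.6 RPKM at 24 h and 1.86 and 0.0329 RPKM at 72 h (log2 fold change -4.76 ± 1.30 SE, adjusted p = 0.0267). Dscc1, a factor of sister chromatid cohesion, was at 9.95 and 9.89 RPKM at 24 h and 0.395 and 0 RPKM at 72 h (log2 fold change -5.44 ± 1.31 SE, adjusted p = 0.0158). Lrr1, which helps to unload the replicative helicase, was at 43.6 and 42.9 RPKM at 24 h and 2.11 and 0 RPKM at 72 h (log2 fold change -5.16 ± 1.30 SE, adjusted p = 0.0205). With 1 library left out the log2 fold change ranged from -14.4 to -4.24 for Lrr1, from -13.8 to -4.54 for Dscc1 and from -9.17 to -3.86 for Cdca5. Dnph1, a nucleotide hydrolase, had 441 counts at 24 h and 2 at 72 h, a ratio of 169 with an interval of 46.5 to 1399. These intervals cover counting error only.

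A part of the genes for making ribosomes was lower at 72 h, and the ribosomal proteins had a median near that of all genes when both replicates were used. Of 22 tested genes of ribosome biogenesis and Myc targets, 8 were called lower and 0 higher, and 21 had a log2 fold change below 0. The number called lower was 2 and 4 without 24 h replicate 1 or 2, 5 without 72 h replicate 2 and 13 without 72 h replicate 1. Myc itself, the transcription factor that drives this program, was at 21.7 and 15.3 RPKM at 24 h and 4.20 and 3.46 RPKM at 72 h (log2 fold change -1.90 ± 0.45 SE, adjusted p = 0.0143). Ncl, nucleolin, was at 54.4 and 53.3 RPKM at 24 h and 16.9 and 8.72 RPKM at 72 h (log2 fold change -1.75 ± 0.27 SE, adjusted p = 0.00169). Gnl3, a nucleolar GTPase, was at 21.9 and 23.5 RPKM at 24 h and 7.29 and 5.58 RPKM at 72 h (log2 fold change -1.46 ± 0.24 SE, adjusted p = 0.00256). Both 72 h libraries lay below both 24 h libraries in each, and Ncl and Gnl3 kept their calls whichever library was left out. Nop56, a core protein of box C/D snoRNPs, Ddx18, a nucleolar helicase, and Ebna1bp2, an assembly factor of the large subunit, had log2 fold changes of -1.76 (adjusted p = 0.0144), -1.45 (adjusted p = 0.0306) and -1.37 (adjusted p = 0.0212). Of 75 ribosomal protein genes 2 were called higher and 2 lower, and the 72 h replicates differed. Without replicate 2 the counts were 0 and 7, the median of the log2 fold changes was -0.50 and 69 of 75 were below 0, whereas without replicate 1 they were 5 and 4, with a median of 0.13 and 30 below 0. Without 24 h replicate 1 the counts were 0 and 2 and without replicate 2 they were 0 and 1. Rps27 was at 1519 and 1909 RPKM at 24 h and 2820 and 5513 RPKM at 72 h (log2 fold change 1.74, adjusted p = 0.0156), and Rpl12 had a log2 fold change of -1.04 (adjusted p = 0.00663). Ribosomal protein genes have many processed copies, and their counts can be split among them.

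A part of the protein folding genes was lower too. Of 20 tested heat shock and chaperone genes all had a log2 fold change below 0, and 7 (35%) were called lower and 0 higher, against 6.02% of all genes called lower. Hspe1, the mitochondrial co-chaperonin, was at 427 and 511 RPKM at 24 h and 113 and 132 RPKM at 72 h (log2 fold change -1.53 ± 0.27 SE, adjusted p = 0.00304). Its partner Hspd1 was at 61.5 and 45.1 RPKM at 24 h and 21.9 and 7.48 RPKM at 72 h (log2 fold change -1.57, adjusted p = 0.0256). Cct6a, a subunit of the cytosolic chaperonin, was at 49.1 and 43.1 RPKM at 24 h and 17.4 and 6.41 RPKM at 72 h (log2 fold change -1.66 ± 0.34 SE, adjusted p = 0.00736). In each, both 72 h libraries were below both 24 h libraries. The cytosolic HSP90 genes Hsp90aa1 and Hsp90ab1 and their co-chaperone Stip1 had log2 fold changes of -1.41 (adjusted p = 0.0178), -1.28 (adjusted p = 0.0158) and -1.60 (adjusted p = 0.0429). In the endoplasmic reticulum list, 19 of 21 tested genes had a log2 fold change below 0, and 4 were called lower and 0 higher. Hsp90b1, the HSP90 of the endoplasmic reticulum, was at 149 and 139 RPKM at 24 h and 41.6 and 26.2 RPKM at 72 h (log2 fold change -1.74 ± 0.31 SE, adjusted p = 0.00361). Hspa5, the chaperone BiP, was at 95.1 and 68.4 RPKM at 24 h and 19.3 and 5.88 RPKM at 72 h (log2 fold change -2.42 ± 0.59 SE, adjusted p = 0.0171). Replicate 2 was the lower of the 72 h libraries. Pdia6, a disulfide isomerase, and Manf, a secreted stress protein, had log2 fold changes of -2.26 (adjusted p = 0.0369) and -1.19 (adjusted p = 0.00987). The chaperones called lower numbered 2 without 72 h replicate 2 or without either 24 h library and 12 without 72 h replicate 1. In the endoplasmic reticulum list they numbered 2 without 72 h replicate 2, 1 without either 24 h library and 8 without 72 h replicate 1.

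Metabolic lists held fewer called genes. In sterol and fatty acid synthesis all 10 tested genes had a log2 fold change below 0, and 2 were called. Idi1, an isomerase of the isoprenoid pathway, was at 50.02 and 57.1 RPKM at 24 h and 15.2 and 12.1 RPKM at 72 h (log2 fold change -1.60 ± 0.19 SE, adjusted p = 3.65e-04). Stard4, a carrier of cholesterol, was at 13.1 and 13.5 RPKM at 24 h and 4.02 and 3.96 RPKM at 72 h (log2 fold change -1.35 ± 0.39 SE, adjusted p = 0.0348), and lost its call when any 1 library was left out. Of 10 genes of glycolysis and hypoxia 2 were called lower and 2 higher. The glycolytic enzymes Eno1 and Pgk1 were the lower ones. Pgk1 was at 118 and 96.6 RPKM at 24 h and 38.4 and 33.9 RPKM at 72 h (log2 fold change -1.19 ± 0.25 SE, adjusted p = 0.00834). Eno1 was at 92.8 and 59.4 RPKM at 24 h and 21.9 and 4.88 RPKM at 72 h (log2 fold change -2.25 ± 0.62 SE, adjusted p = 0.028). The higher ones were the mitophagy receptors Bnip3 and Bnip3l, with log2 fold changes of 1.05 (adjusted p = 0.0369) and 1.05 (adjusted p = 0.00372). On plain total counts these were 0.71 and 0.70, and neither was called. The counts of higher and lower genes in this list were 0 and 5 without 72 h replicate 1, 1 and 1 without 72 h replicate 2, 1 and 0 without 24 h replicate 1 and 0 and 1 without 24 h replicate 2. For sterol and fatty acid synthesis 4 were called lower without 72 h replicate 1 and 1 when any other library was left out. Nars, asparaginyl-tRNA synthetase, was the 1 called gene of 11 in the amino acid response (log2 fold change -1.23, adjusted p = 0.00942). Psph, which makes serine, was at 22.7 and 19.4 RPKM at 24 h and 18.3 and 10.2 RPKM at 72 h. Txn1, thioredoxin, was the 1 called gene of 13 in the oxidative stress list, at 1860 and 2121 RPKM at 24 h and 651 and 778 RPKM at 72 h (log2 fold change -1.07 ± 0.26 SE, adjusted p = 0.0171). Prdx1, a peroxiredoxin, was at 992 and 1092 RPKM at 24 h and 799 and 908 RPKM at 72 h. In the respiratory chain, nuclear-encoded genes had a median near that of all genes. Of 73, 2 (2.74%) were called higher, against 8.76% of all tested genes. The median of 0.12 became 0.40 without 72 h replicate 1. Without 72 h replicate 2 it became -0.23, with 54 of 73 below 0. Here too the 72 h replicates differed, with 12 higher and 3 lower without replicate 1, 0 and 4 without replicate 2, and 0 and 0 without either 24 h library. Cox6a2, the heart and muscle form of a cytochrome c oxidase subunit, was at 17.6 and 14.02 RPKM at 24 h and 44.4 and 239.8 RPKM at 72 h (log2 fold change 3.70 ± 0.79 SE, adjusted p = 0.00897). Its 72 h mean rests mostly on replicate 2, and it lost its call without either 24 h library or without 72 h replicate 2. Ndufa6 was called with a log2 fold change of 1.26 (adjusted p = 0.0227) and lost its call without either 24 h library, without 72 h replicate 2 (0.58) and on plain total counts (0.82). The 13 tested protein genes of the mitochondrial genome, read after their values were seen, all had a log2 fold change above 0. Of them, 9 (69.2%) were called higher, against 8.76% of all tested genes. Without IL-21, 9 were called higher, against 4.97% of all tested genes. Most of the calls with IL-21 were lost in at least 1 of the fits that left out a library. With IL-21, mt-Co1 was at 2959 and 3071 RPKM at 24 h and 8253 and 9044 RPKM at 72 h (log2 fold change 1.92 ± 0.24 SE, adjusted p = 4.37e-04). Nuclear copies of mitochondrial DNA make the counts of these genes uncertain.

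NK cell receptors made up the group with the most genes called higher. Of 38 tested, 19 (50%) were called higher and 0 lower, against 8.76% of all tested genes called higher, and 36 of 38 log2 fold changes were above 0, over a range of -0.13 to 2.73. The signalling adaptors led. Tyrobp, the adaptor DAP12 that couples activating receptors to SYK and ZAP-70, was at 5213 and 5744 RPKM at 24 h and 20950 and 32540 RPKM at 72 h (log2 fold change 2.72 ± 0.38 SE, adjusted p = 9.64e-04, ENSMUSG00000030579, chr7:30413760-30417585, plus strand on mm10). Hcst, the adaptor DAP10 of NKG2D, was at 317 and 361 RPKM at 24 h and 1334 and 2006 RPKM at 72 h (log2 fold change 2.73 ± 0.37 SE, adjusted p = 8.52e-04). Both 72 h libraries lay above both 24 h libraries, with replicate 2 the higher. Fcer1g, the adaptor of CD16 and NKp46, was at 4561 and 5618 RPKM at 24 h and 9410 and 15580 RPKM at 72 h (log2 fold change 1.74 ± 0.36 SE, adjusted p = 0.00769). Among the Ly49 receptors for MHC class I, Klra8 (Ly49H, an activating member) was at 735 and 959 RPKM at 24 h and 2182 and 2895 RPKM at 72 h (log2 fold change 2.00 ± 0.29 SE, adjusted p = 0.00106). Klra9 was at 639 and 676 RPKM at 24 h and 1342 and 1893 RPKM at 72 h (log2 fold change 1.73 ± 0.27 SE, adjusted p = 0.00188). Ly49 genes are close copies of each other, so how counts were divided among them is uncertain. Klrb1a, of the NKR-P1 lectin family, was at 184 and 192 RPKM at 24 h and 394 and 527 RPKM at 72 h (log2 fold change 1.71 ± 0.32 SE, adjusted p = 0.00473). Tyrobp, Hcst, Klra8 and Klra9 kept their calls whichever library was left out. Klra8 and Klra4 are also on the list of conventional NK markers. Its sum was higher at 72 h but consisted almost wholly of Ccl5, Klra8 and Klra4, so it is no separate measure of conventional NK cells. The study sorts trNK cells as positive for CD49a and defines conventional NK cells as negative for it. The part of conventional NK cells in these values was not tested. The count of receptors called higher was 11 without 72 h replicate 2 or 24 h replicate 2, 8 without 24 h replicate 1 and 10 on plain total counts. Ncr1, by comparison, had a log2 fold change of 0.62, under the 2-fold limit.

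**Figure D4:**
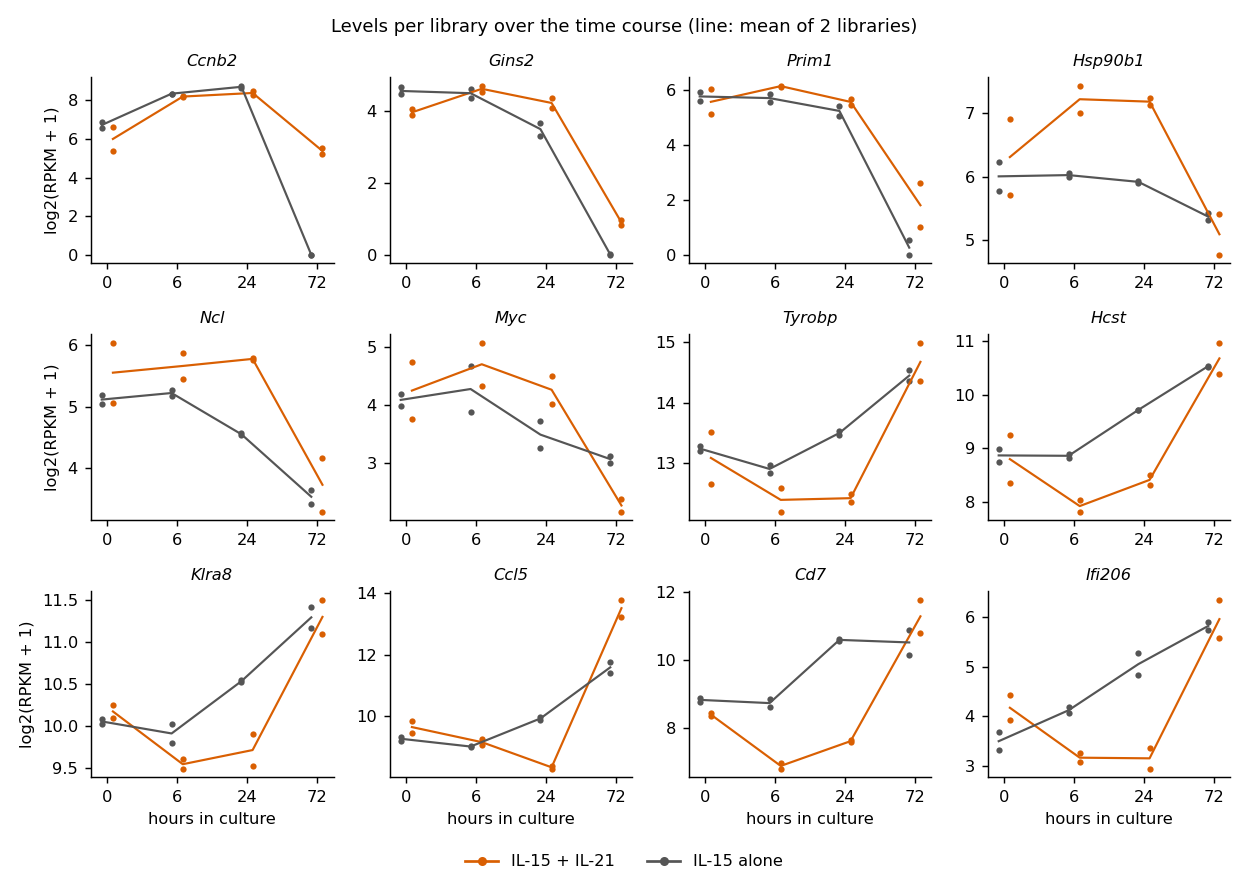
Levels of 12 genes as log2(RPKM + 1) at 0, 6, 24 and 72 h of culture with IL-15 and IL-21 (orange) or IL-15 alone (grey), 1 point per library and a line through the mean of 2 libraries. Cell cycle genes (Ccnb2, Gins2, Prim1) are lower at 72 h than at 24 h in both cultures, while Ccl5 reaches 9576 and 13970 RPKM at 72 h with IL-21 and 2720 and 3478 RPKM without it.

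The largest rise of any named gene was in Ccl5, the chemokine RANTES that draws T cells and NK cells. It was at 339.5 and 315 RPKM at 24 h and 9576 and 13970 RPKM at 72 h (log2 fold change 5.60 ± 0.37 SE, adjusted p = 1.65e-05), and each 72 h library was far above each 24 h library. Ltb, the lymphotoxin beta chain of lymphoid tissue formation, was at 41.3 and 37.8 RPKM at 24 h and 568 and 181 RPKM at 72 h (log2 fold change 3.52 ± 0.40 SE, adjusted p = 3.06e-04), with replicate 1 the higher at 72 h. These were the 2 called of 11 tested cytokines and chemokines (18.2%, against 8.76% of all tested genes called higher). Of the 11, 10 had a log2 fold change above 0 and none was called lower. Ifng was at 70.3 and 63.9 RPKM at 24 h and 152 and 79.5 RPKM at 72 h with an adjusted p of 0.593. Cd7, an immunoglobulin superfamily receptor of T cells and NK cells, led the checkpoint and costimulatory list, with 199 and 192 RPKM at 24 h and 3478 and 1769 RPKM at 72 h (log2 fold change 4.07 ± 0.24 SE, adjusted p = 9.67e-06). Tnfrsf18, the costimulatory receptor GITR, was called with 65.9 and 55.0 RPKM at 24 h and 143 and 67.6 RPKM at 72 h (log2 fold change 1.11 ± 0.27 SE, adjusted p = 0.0162), but lost its call on plain total counts, without 72 h replicate 1 (0.75) and without either 24 h library. The other 7 tested members of that list were not called, so that 22.2% were called higher, against 8.76% of all tested genes. Ccl5, Ltb and Cd7 kept their calls whichever library was left out. Ccl5 is also on the conventional NK list and Ltb on the ILC1 list. Both sums were higher at 72 h mostly through these same genes, so they are no separate measure of such cells.

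Of the granzymes and perforin, the cytotoxic granule contents, none was called higher at 72 h. Of 11 tested, 2 (18.2%) were called lower, against 6.02% of all tested genes. The log2 fold changes were above 0 for 4 and below 0 for 7, with a median of -0.50. Without IL-21, 5 of the 11 were called lower and 0 higher, with a median of -1.25, against 9.82% and 4.97% of all tested genes. Gzmb had a log2 fold change of -1.26 there, and its difference between cultures was not called (adjusted p = 0.995). Gzmb, granzyme B, was at 9956 and 8535 RPKM at 24 h and 4336 and 1881 RPKM at 72 h (log2 fold change -1.27 ± 0.35 SE, adjusted p = 0.0284). Gzme was at 471 and 429 RPKM at 24 h and 134 and 50.8 RPKM at 72 h (log2 fold change -1.99 ± 0.55 SE, adjusted p = 0.0316). In both genes replicate 2 was the lower at 72 h, and 0 members were called without it or without either 24 h library, against 4 lower and 1 higher without replicate 1. Gzma, granzyme A, was at 11140 and 10800 RPKM at 24 h and 9217 and 12560 RPKM at 72 h (adjusted p = 0.592), which shows overlapping groups. Prf1, perforin, was at 62.9 and 51.9 RPKM at 24 h and 32.4 and 12.8 RPKM at 72 h (adjusted p = 0.112). The granzyme genes next to Gzmb are close copies and can share reads. In the granule release machinery 2 of 12 were called higher and 1 lower, which became 3 and 0 without 72 h replicate 2 and 1 and 0 without either 24 h library. Without 72 h replicate 1 the median of that list turned from 0.24 to -0.35. With all libraries 16.7% of the list were called higher and 8.33% lower, against 8.76% and 6.02% of all tested genes. Cst7, the protease inhibitor cystatin F, was at 721 and 738 RPKM at 24 h and 1868 and 1027 RPKM at 72 h (log2 fold change 1.32 ± 0.18 SE, adjusted p = 7.33e-04) and kept its call whichever library was left out. Vamp8, a SNARE of granule fusion, was at 147 and 142 RPKM at 24 h and 269 and 267 RPKM at 72 h (log2 fold change 1.29 ± 0.25 SE, adjusted p = 0.00526). Serpinb9, which protects killer cells from their own granzyme B, was at 209.9 and 184 RPKM at 24 h and 60.0 and 28.5 RPKM at 72 h (log2 fold change -1.84 ± 0.54 SE, adjusted p = 0.0367). The calls of Cst7 and Vamp8 were lost on plain total counts, that of Vamp8 also without either 24 h library, and that of Serpinb9 in each fit but the one without 72 h replicate 1.

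A part of the interferon-inducible genes was higher at 72 h. Of 52 genes in the list, 20 were tested. Of these, 8 (40%) were called higher and 1 (5%) lower, against 8.76% and 6.02% of all tested genes. The log2 fold changes ran from -1.94 to 4.16. Ifi213, Ifi206, Ifi208, Ifi209 and Ifi203 were among the 8. Isg15, Ifit1, Ifit3, Mx1, Oas2, Irf7 and Rsad2, among others, were under the limit for testing. The genes of the Ifi200 family, DNA sensors and transcription regulators encoded side by side on chromosome 1, held the top places. Ifi213 was at 1.01 and 1.29 RPKM at 24 h and 13.9 and 17.1 RPKM at 72 h (log2 fold change 4.16 ± 0.66 SE, adjusted p = 0.00191). Ifi206 was at 6.71 and 9.37 RPKM at 24 h and 46.3 and 80.1 RPKM at 72 h (log2 fold change 3.42 ± 0.43 SE, adjusted p = 4.61e-04). Ifi208 was at 3.15 and 2.40 RPKM at 24 h and 10.1 and 12.1 RPKM at 72 h (log2 fold change 2.42 ± 0.46 SE, adjusted p = 0.00523). Both 72 h libraries of each were above both 24 h libraries. Ifi208 was admitted to the test only through the 72 h libraries with IL-21, where it was high, so its rise is not independent of the filter. All 6 tested Ifi200 genes were called higher, a count made after their values were seen, and their sequences are alike enough for counts to be shared. Ifi213 and Ifi208 passed the filter only through 72 h groups, so this tally was partly set by the filter. Outside the family, Rtp4, a chaperone of receptor transport that limits viral replication, was at 10.3 and 13.8 RPKM at 24 h and 56.9 and 40.2 RPKM at 72 h (log2 fold change 2.36 ± 0.37 SE, adjusted p = 0.00172). Isg20, an exonuclease, was at 14.8 and 14.5 RPKM at 24 h and 51.0 and 35.8 RPKM at 72 h (log2 fold change 1.92 ± 0.46 SE, adjusted p = 0.015). Ifitm2, a membrane protein that restricts virus entry, went the other way, with 522 and 433 RPKM at 24 h and 125 and 72.1 RPKM at 72 h (log2 fold change -1.94 ± 0.43 SE, adjusted p = 0.0103). Ifi213, Ifi206 and Rtp4 kept their calls whichever library was left out, and the number called higher was lowest, at 5, without 24 h replicate 2. Of 7 promoter windows of interferon-stimulated genes called higher, 3 held the core of an interferon response element (GAAA, any 2 bases, GAAA) on either strand, against 4.09% of tested genes. The element of Ifi213 is printed in capitals in the 150 bases before its start (GRCm38.p6, chr1:173599273-173599422, minus strand), where it began 73 bases before the start.
Ifi213: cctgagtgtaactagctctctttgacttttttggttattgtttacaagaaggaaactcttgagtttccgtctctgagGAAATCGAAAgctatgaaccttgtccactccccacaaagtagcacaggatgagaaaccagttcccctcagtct

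Some components of IL-21 and IL-15 signalling were too low to be tested. Il21r was at 1.57 and 1.26 RPKM at 24 h and 2.68 and 1.48 RPKM at 72 h and Stat3 at 4.19 and 2.65 RPKM at 24 h and 3.67 and 1.26 RPKM at 72 h, both under the limit for testing. Il2rg, the common gamma chain, was at 389 and 361 RPKM at 24 h and 858 and 406 RPKM at 72 h (log2 fold change 1.07 ± 0.28 SE, adjusted p = 0.0223). It lost its call on plain total counts, without 72 h replicate 1 (0.71) and without either 24 h library. It was the 1 called gene of 5 tested receptors. Of 8 tested genes of JAK-STAT feedback, Myc alone was called. Pim2, a kinase induced by STAT factors, was at 33.6 and 30.6 RPKM at 24 h and 112 and 22.2 RPKM at 72 h (adjusted p = 0.254), with a wide gap between the 72 h libraries. Ptpn2, a phosphatase of JAK1 and JAK3, was at 54.4 and 55.3 RPKM at 24 h and 51.6 and 59.0 RPKM at 72 h (adjusted p = 0.422). Of 5 tested NK transcription factors 0 were called by edgeR with the fold limit. Id2, an inhibitor of E proteins needed for innate lymphoid cells, was at 2900 and 2992 RPKM at 24 h and 4363 and 4438 RPKM at 72 h (log2 fold change 0.97 ± 0.20 SE, adjusted p = 0.00769), just under 2-fold. Eomes, a T-box factor of NK cells, was at 11.7 and 9.80 RPKM at 24 h and 10.4 and 11.5 RPKM at 72 h (adjusted p = 0.551).

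Genes of survival and growth arrest were called in small numbers. Bcl2, an inhibitor of apoptosis, was at 8.77 and 8.57 RPKM at 24 h and 17.4 and 14.6 RPKM at 72 h (log2 fold change 1.26 ± 0.18 SE, adjusted p = 0.00106), the 1 called gene of 11 apoptosis regulators. It kept its call whichever library was left out but not on plain total counts (0.88). Btg1, an antiproliferative gene and the 1 called of 5 tested immediate early genes, was at 42.5 and 34.6 RPKM at 24 h and 185 and 109 RPKM at 72 h (log2 fold change 2.27 ± 0.23 SE, adjusted p = 2.16e-04) and kept its call in all of these settings. Trp53inp1, a p53 target of autophagy, was at 3.21 and 2.37 RPKM at 24 h and 19.2 and 14.7 RPKM at 72 h (log2 fold change 2.97 ± 0.58 SE, adjusted p = 0.00568). Sesn1, a sestrin, was at 10.9 and 9.57 RPKM at 24 h and 35.7 and 16.4 RPKM at 72 h (log2 fold change 1.66 ± 0.45 SE, adjusted p = 0.0265), and it lost its call without 72 h replicate 1, without either 24 h library and on plain total counts (1.34). Cdkn1a, the cyclin-dependent kinase inhibitor p21 and also a p53 target, was lower, at 7.64 and 3.50 RPKM at 24 h and 0.469 and 0 RPKM at 72 h (log2 fold change -4.35 ± 1.21 SE, adjusted p = 0.0284), with 0 RPKM in replicate 2 at 72 h. Its log2 fold change ranged from -12.6 to -3.44 with 1 library left out. So of 6 tested p53 targets 2 were called higher and 1 lower, and without 24 h replicate 2 none was called. Rgs1, a regulator of chemokine receptor signals, was the 1 called of 13 genes of tissue residency and egress, at 14.6 and 13.1 RPKM at 24 h and 23.2 and 25.97 RPKM at 72 h (log2 fold change 1.23 ± 0.26 SE, adjusted p = 0.00769). Its call was lost without 72 h replicate 2 (0.86), without either 24 h library and on plain total counts (0.83). In the same list Ly6e was at 733 and 691 RPKM at 24 h and 1456 and 771 RPKM at 72 h (log2 fold change 0.97 ± 0.19 SE, adjusted p = 0.00619), under 2-fold. Of 4 tested genes of NF-kB feedback 0 were called, with Nfkbia at 57.6 and 40.3 RPKM at 24 h and 138 and 47.1 RPKM at 72 h (adjusted p = 0.149).

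MHC class I genes were called higher in 3 of 17 tested, and in 1 without 24 h replicate 2. Without 72 h replicate 1 the list turned, with 2 called higher and 2 lower, 12 of 17 below 0 and a median of -0.26 in place of 0.33. With all libraries 17.6% of the list were called higher, against 8.76% of all tested genes. B2m, the light chain of class I molecules, was at 19430 and 23050 RPKM at 24 h and 37980 and 63310 RPKM at 72 h (log2 fold change 1.70 ± 0.36 SE, adjusted p = 0.00901). Its call was lost without 72 h replicate 2 (0.95) and without either 24 h library. H2-T23, which encodes Qa-1, the ligand of CD94 and NKG2 receptors, was at 44.6 and 26.5 RPKM at 24 h and 108 and 43.0 RPKM at 72 h (log2 fold change 1.39 ± 0.34 SE, adjusted p = 0.0174). H2-Q6 was at 19.6 and 18.6 RPKM at 24 h and 53.2 and 33.6 RPKM at 72 h (log2 fold change 1.53 ± 0.26 SE, adjusted p = 0.00261) and kept its call whichever library was left out. H2-T23 lost its call on plain total counts, without 72 h replicate 1 (0.87) and without 24 h replicate 2, and class I genes share sequence. The groups of H2-T23 overlapped, since its 72 h replicate 2 lay below its 24 h replicate 1.

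The study follows trNK differentiation with genes that it chose on samples of this series, so these lists are not independent evidence of direction. Of 15 genes that the study describes as rising along differentiation, 12 were tested. Of these, 1 (Gzmb) was called lower and 0 higher, and the median of the log2 fold changes was -0.39. Without IL-21, 5 of the 12 were called lower and 1 higher over the same interval, with a median of -0.25. Of all tested genes 9.82% were called lower and 4.97% higher there. The comparison is of 2 times with IL-21 and does not measure the effect of IL-21 at either time. Spp1, osteopontin, was at 12090 and 11950 RPKM at 24 h and 5179 and 5831 RPKM at 72 h (adjusted p = 0.14). Klrg1, an inhibitory receptor, was at 139 and 129 RPKM at 24 h and 193 and 88.7 RPKM at 72 h (adjusted p = 0.493). Tnfrsf9, a costimulatory receptor, was at 428 and 348 RPKM at 24 h and 289.8 and 86.3 RPKM at 72 h (adjusted p = 0.203). Of 5 tested genes described as falling, 1 (Bcl2) was called higher, and all 5 log2 fold changes were above 0, with a median of 1.11. Tcf7, a transcription factor of immature NK cells, was at 8.18 and 5.03 RPKM at 24 h and 17.9 and 8.86 RPKM at 72 h (adjusted p = 0.0526). Cd27, a costimulatory receptor, was at 17.8 and 13.3 RPKM at 24 h and 31.5 and 5.54 RPKM at 72 h (adjusted p = 0.604). The 72 h replicates of Cd27 lay on either side of both 24 h libraries.

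Several large rises lay outside the lists. Izumo4, a member of a family of sperm proteins, was at 7.16 and 7.33 RPKM at 24 h and 40.6 and 77.8 RPKM at 72 h (log2 fold change 3.49 ± 0.42 SE, adjusted p = 4.21e-04). Ighd, the immunoglobulin delta constant region, was at 3.03 and 1.53 RPKM at 24 h and 28.1 and 18.3 RPKM at 72 h (log2 fold change 3.70 ± 0.56 SE, adjusted p = 0.00151). Phactr3, which binds protein phosphatase 1 and actin, was at 2.66 and 1.53 RPKM at 24 h and 13.7 and 16.9 RPKM at 72 h (log2 fold change 3.29 ± 0.54 SE, adjusted p = 0.00252). Genes were taken into the largest rises only where the libraries of both groups did not overlap, so the lack of overlap here was set in advance. Izumo4, Ighd and Phactr3 kept their calls whichever library was left out. Rn7sk, the small nuclear RNA 7SK, which lacks a poly(A) tail, was at 10.5 and 34.7 RPKM at 24 h and 104 and 249.4 RPKM at 72 h (log2 fold change 3.43 ± 0.87 SE, adjusted p = 0.0193) and was called in only 1 of the 4 fits that left out a library.

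Of the 88 called genes chosen for naming, 37 kept their call whichever library was left out. Beside the losses given above, the calls of Dscc1, Lrr1, Cdca5, Hmmr, Cdkn1a, Isg20 and Manf were lost without either 24 h library. Those of Lig1, Prim1, Rrm2, Ccne2, Ccna2, Hspa5, Pdia6, Eno1, Nop56, Ddx18, Ebna1bp2, Stip1, Hspd1, Hsp90aa1, Hsp90ab1, Fra10ac1 and Rps27 were lost without either 24 h library and without 72 h replicate 2, where the log2 fold change of Rps27 was 0.83. Fcer1g (0.995) and Ifitm2 lost theirs without 72 h replicate 2 or 24 h replicate 1. Those of Myc, Klrb1a and Pgk1 were lost without 24 h replicate 1, and those of Ifi208, Trp53inp1 and Nars without 24 h replicate 2. Rpl12 and Bnip3l lost theirs without 72 h replicate 1 or 24 h replicate 2, Txn1 without 72 h replicate 1 or either 24 h library, and Bnip3 in each of the 4 fits.

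The same interval in cultures with IL-15 alone was set beside these changes. A difference between cultures that was not called may still exist, since 17% of 4-fold differences were recovered on simulated data. Without IL-21, the number of genes called happened to be equal, 518 of 3503 (14.8%), with 174 higher (4.97%) and 344 lower (9.82%). They were mostly other genes. Called in both cultures were 188 genes in the same direction and 2 in opposite directions. The difference between both changes was tested as an interaction in the same fit, which uses all 4 libraries with IL-21 and all 4 without it. It was called for 148 genes (4.22%), 127 (3.63%) with a higher and 21 (0.599%) with a lower log2 change in the presence of IL-21. With 1 library left out this number ranged from 64 without 24 h replicate 2 with IL-21 to 769 without 72 h replicate 1 lacking IL-21, and a fit of only the 8 libraries compared gave 46. Of the 127, 85 were called lower without IL-21, against 9.82% of all genes, but both tests use the libraries without IL-21. Of the 127, 41 had 0 counts in both 72 h libraries of that culture, the libraries with the fewest detected genes. The part of that low detection in the difference was not tested.

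Ccl5 and Cd7 rose more with IL-21. Without it, Ccl5 was at 946 and 1013 RPKM at 24 h and 2720 and 3478 RPKM at 72 h (log2 difference 3.57 ± 0.44 SE, adjusted p = 6.10e-04), so that its 24 h level was lower and its 72 h level higher with IL-21. Cd7 without IL-21 was at 1512 and 1562 RPKM at 24 h and 1870 and 1138 RPKM at 72 h (log2 difference 3.78 ± 0.31 SE, adjusted p = 5.27e-05), and its level with IL-21 was lower at 24 h but not at 72 h. Ltb (log2 difference 2.17 ± 0.51 SE, adjusted p = 0.0395) and Ifi206 (log2 difference 2.30 ± 0.56 SE, adjusted p = 0.0429) also had a called difference. Ltb without IL-21 was at 171 and 136 RPKM at 24 h and 434 and 200.3 RPKM at 72 h. Ifi206 without IL-21 was at 37.5 and 27.5 RPKM at 24 h and 58.6 and 52.2 RPKM at 72 h. Tyrobp without IL-21 was at 11340 and 11770 RPKM at 24 h and 23740 and 20970 RPKM at 72 h. Hcst without IL-21 was at 839 and 839.9 RPKM at 24 h and 1489 and 1471 RPKM at 72 h. Their differences were not called (adjusted p = 0.146 and 0.108). Izumo4, Cst7, Tnfrsf18, Ly6e and H2-T23 also had called differences, at log2 differences of 2.23, 1.31, 1.90, 1.49 and 2.27 (adjusted p = 0.0464, 0.0117, 0.0168, 0.00882 and 0.0236).

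Many cell cycle genes were lower at 72 h in both cultures, and for several the fall was smaller with IL-21. Without IL-21, 23 of the 30 DNA replication genes and 22 of the 24 mitosis genes were called lower, against 9.82% of all tested genes. In each list the difference was called higher with IL-21 for 7 genes and lower for 0, against 3.63% and 0.599% of all tested genes. Ccnb2 without IL-21 was at 434 and 398 RPKM at 24 h and 0 and 0 RPKM at 72 h, with 0 counts in both 72 h libraries, which makes it at least 5726-fold lower there when 3 counts per library are allowed (adjusted p of the difference = 1.45e-05). Cenpk, a centromere protein, was at 34.8 and 38.9 RPKM at 24 h and 5.37 and 5.28 RPKM at 72 h with IL-21 (log2 fold change -2.40 ± 0.24 SE, adjusted p = 2.49e-04). Without IL-21 it was at 38.2 and 35.6 RPKM at 24 h and 0 and 0 RPKM at 72 h (at least 1736-fold lower, adjusted p of the difference = 1.22e-06). Nusap1 without IL-21 was at 58.2 and 56.5 RPKM at 24 h and 0.259 and 0.136 RPKM at 72 h (log2 difference 5.00 ± 0.43 SE, adjusted p = 6.14e-05). The IL-21 cultures thus kept a measurable level of these transcripts at 72 h, where those without IL-21 had 0 or close to 0. Kif11 had 0 counts at 72 h without IL-21 (at least 392-fold lower, adjusted p of the difference = 7.82e-04). Gins2 had 2 counts and Hmmr 1 count there. Prim1, Rrm2, Ccna2 and Cks1b had no called difference (adjusted p = 0.133, 0.256, 0.518 and 0.275). Gzme without IL-21 was at 95.4 and 67.7 RPKM at 24 h and 0 and 0 RPKM at 72 h (at least 672-fold lower, adjusted p of the difference = 4.58e-04).

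Outside the lists, genes with large differences on the higher side had 0 counts at 72 h without IL-21. Gnpda1, an enzyme of glucosamine metabolism, was at 39.9 and 31.9 RPKM at 24 h and 31.6 and 1.04 RPKM at 72 h with IL-21. The level without it was 28.6 and 24.4 RPKM at 24 h and 0 and 0 RPKM at 72 h (at least 570.1-fold lower, adjusted p of the difference = 0.00822). Gng11, a G protein gamma subunit, was at 2.37 and 9.80 RPKM at 24 h and 1.52 and 18.5 RPKM at 72 h with IL-21. Without IL-21 the level was 28.2 and 11.9 RPKM at 24 h and 0 and 0 RPKM at 72 h (at least 166-fold lower, adjusted p of the difference = 0.00861). In both genes the 72 h replicates with IL-21 lay far apart, and with 1 library left out the log2 fold change with IL-21 ranged from -1.91 to 2.66 for Gng11 and from -4.51 to -0.067 for Gnpda1. On the lower side stood genes of ribosome assembly. Gnl3 without IL-21 was at 7.42 and 9.61 RPKM at 24 h and 10.00 and 9.10 RPKM at 72 h (log2 difference -1.97 ± 0.34 SE, adjusted p = 0.0065), so that its fall was seen with IL-21 from a higher 24 h level. Esf1, a nucleolar factor of 18S rRNA processing, was at 12.3 and 11.5 RPKM at 24 h and 4.32 and 5.05 RPKM at 72 h with IL-21. Its level without IL-21 was 6.66 and 4.96 RPKM at 24 h and 13.4 and 21.8 RPKM at 72 h (log2 difference -2.91 ± 0.57 SE, adjusted p = 0.015). Ddx10, a helicase of the same process, was at 6.21 and 6.16 RPKM at 24 h and 3.11 and 2.43 RPKM at 72 h with IL-21. Without IL-21, Ddx10 was at 2.69 and 2.94 RPKM at 24 h and 12.6 and 23.9 RPKM at 72 h (log2 difference -3.88 ± 0.79 SE, adjusted p = 0.0181). Of 22 tested genes of ribosome biogenesis and Myc targets, 3 had a called lower difference and 0 a higher one, against 0.599% and 3.63% of all genes. Nup43, a nuclear pore subunit, was at 39.5 and 45.1 RPKM at 24 h and 12.7 and 5.65 RPKM at 72 h with IL-21, and its call there held whichever library was left out. Without IL-21, Nup43 was at 25.9 and 19.3 RPKM at 24 h and 35.7 and 34.6 RPKM at 72 h (log2 difference -2.89 ± 0.40 SE, adjusted p = 0.00125). AI597479 and Fra10ac1 had log2 differences of -7.68 (adjusted p = 0.00111) and -2.75 (adjusted p = 0.0405). AI597479 was at 1.63 and 3.08 RPKM at 24 h and 0.119 and 0.122 RPKM at 72 h with IL-21. Without IL-21, AI597479 was at 1.65 and 0.519 RPKM at 24 h and 11.8 and 11.4 RPKM at 72 h. Both AI597479 and Fra10ac1 were called lower with IL-21 (log2 fold change -3.91, adjusted p = 0.00526, and -1.81, adjusted p = 0.0214). Among the groups at 24 h and 72 h, AI597479 and Ddx10 exceeded the RPKM limit in both libraries only at 72 h without IL-21. Gng11 did so only at 24 h without IL-21. The differences of AI597479, Ddx10 and Gng11 may thus not be independent of the filter.

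**Figure D5:**
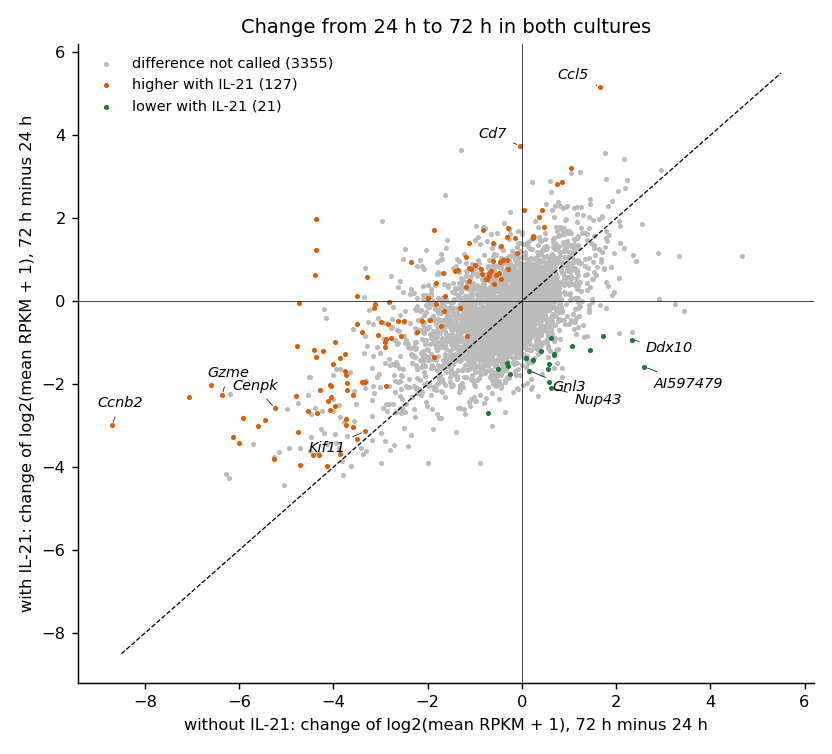
Change of each tested gene from 24 h to 72 h without IL-21 (horizontal axis) and with IL-21 (vertical axis), each as the difference of log2(mean RPKM of 2 libraries + 1), with genes whose difference between cultures was called in orange (127, higher with IL-21) or green (21, lower with IL-21). Ccl5 and Cd7 lie above the dashed line of equal change, and Ccnb2, Cenpk and Gzme lie far to its left, where both 72 h libraries without IL-21 had 0 counts.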

How the data were processed

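Bulk RNA-Seq counts of 16 time course libraries of trNK cells were used. The authors aligned reads to mm10 with HISAT2 (2.1.0 in the submitters' processing notes) and counted them per gene, and deposited whole-number counts per gene, not normalized. The tool list in the labels names featureCounts and the study's methods name RSEM, and the library kits given in both sources also differ. RPKM was computed here from the counts, the gene lengths of the same table and the total count. The depth is the total count of a library, and levels per gene are RPKM on total counts, whereas fold changes are on the TMM scale. The counts of 54446 genes, 54409 with a symbol in the name table used, were reduced to 3503, those whose RPKM exceeded 10 in both libraries of at least 1 of the 8 groups. The study's fold threshold of 2 was kept, and an adjusted p threshold of 0.05 was set here. All 16 libraries shared 1 fit in edgeR 4.0.16 (TMM, glmQLFit, glmQLFTest, R 4.3.3), with a contrast for 72 h minus 24 h with IL-21, the same without IL-21, and their difference. The steps were tested on simulated data, in which 200 of 3503 genes were changed 4-fold at 72 h with IL-21. Of these, 48.5% were recovered for 72 h against 24 h and 17% for the difference between cultures. Of the calls made, 5.83% and 2.86% were false. The simulation gave each gene the same spread in all 16 libraries, whereas the real 72 h pair with IL-21 lay farther apart than the 24 h pair. These shares may therefore not hold for the data. Alternatives used DESeq2 1.42.0 (size factors or its own test), limma 3.58.1 with voom, other filters and samples, and single libraries left out.

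The rule named, leaving out clone and model symbols, the 10 largest rises and falls without overlap, up to 6 called genes of each list (with its 2 most abundant genes where fewer than 2 were called), the study's genes and the 5 largest differences between cultures in each direction. The members and lists were chosen with earlier results of these data known. Ccnb1, Mcm6, Pttg1, mt-Co1, Ncr1 and the marker genes were named after their values were seen. A few genes that the rule chose are not reported here. Vamp7, Ddit3, Aldoa and Atp5o did not match a single ID and were left out of their lists. Promoter windows came from RefSeq tables of GRCm38.p6. Figures were drawn with matplotlib 3.10.9 in Python 3.11.15. Intervals for counts are exact at 95%, and bounds allow 3 counts per library.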

Additional observations from a re-analysis of the deposited data

Results flagged for a closer look

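The change from 24 h to 72 h differed between cultures with and without IL-21 for 148 genes, by the interaction term of the edgeR quasi-likelihood fit with Benjamini-Hochberg adjustment and a fold above 2. With 1 library left out this number ranged from 64 to 769. Differences here are log2 values, the change with IL-21 minus the change without it. Higher with IL-21 were Ccl5 at 3.57, Cd7 at 3.78, Ltb at 2.17, Izumo4 at 2.23, Ifi206 at 2.30, Cst7 at 1.31, Tnfrsf18 at 1.90, Ly6e at 1.49 and H2-T23 at 2.27. Among genes of the cell cycle the values were 5.00 for Nusap1, 6.14 for Gins2 and 9.13 for Hmmr. Gins2 had 2 counts and Hmmr 1 count at 72 h without IL-21, so that these fitted values depend on the prior count. Where both 72 h libraries without IL-21 had 0 counts, the difference was called and has no bound of its own. There the level without IL-21 was lower at 72 h by at least 5726-fold for Ccnb2, 1736-fold for Cenpk, 392-fold for Kif11, 672-fold for Gzme, 166-fold for Gng11 and 570.1-fold for Gnpda1, with 3 counts per library allowed. Lower with IL-21 were Gnl3 at -1.97, AI597479 at -7.68, Ddx10 at -3.88, Esf1 at -2.91, Nup43 at -2.89 and Fra10ac1 at -2.75. Of the 21 genes with a lower difference, 12 were called lower between 24 h and 72 h with IL-21, against 6.02% of all tested genes. Both tests use the libraries with IL-21, so the 2 results are not independent.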

How the results depend on the processing

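Numbers of genes called are given here as higher, lower and different between cultures, which were 307, 211 and 148 with the settings of the report. They were 296, 228 and 137 with DESeq2's size factors in edgeR, 186, 496 and 840 with no filter on low counts, 109, 231 and 361 with filterByExpr, 359, 312 and 338 with DESeq2, and 287, 272 and 171 with limma and voom. A fit of only the libraries of the groups compared gave 25, 43 and 46, and a fit of the 8 libraries at 24 h and 72 h gave 150 higher and 86 lower. On total counts without TMM scaling, an alternative chosen after seeing the data, they were 150, 358 and 134. Leaving both 72 h libraries without IL-21 out of the fit, also chosen after seeing the data, gave 407 higher and 354 lower. With 1 library left out in turn, the higher genes ranged from 90 to 396, the lower from 104 to 466 and those different between cultures from 64 to 769. The lowest counts came without 24 h replicate 1 (90, 109 and 65) or replicate 2 (102, 104 and 64). Without 72 h replicate 1 the counts were 396, 466 and 239, and without replicate 2 they were 167, 179 and 273. Without a 72 h library lacking IL-21 the difference was called for 769 (replicate 1) or 312 genes (replicate 2). Replicates share only a number in the labels, and with the replicate block 292, 213 and 131 genes were called. Of the named genes Stip1 alone lost its call with the block (-1.59). Of the 518 genes called, 507 were also called, in the same direction, with DESeq2's size factors, 509 with DESeq2, 478 with voom, 489 with the block, 359 on total counts, 321 with no filter and 236 with filterByExpr. Of the 118 named genes 88 were called, 0 of these reversed under any alternative, and 37 kept their call whichever of the 4 libraries was left out. Among those not called, Prdx1 reversed with no filter (-0.011) and, on total counts, Prdx1 (-0.29), Gzma (-0.011) and Cd55 (-0.23) did. Log2 fold changes with 1 library left out ranged across 0 for Ifngr1 (-0.97 to 0.36), Ly6a (-0.46 to 0.10), Prdx1 (-0.27 to 0.39), Gzma (-0.14 to 0.79), Nfil3 (-0.21 to 0.11), Klrg1 (-0.003 to 0.64), Cd55 (-0.17 to 0.40), Cd27 (-0.90 to 1.13), Il10rb (-0.23 to 1.17) and Gng11 (-1.91 to 2.66). Total counts ended the calls of 11 named genes, namely Cst7, Vamp8, Il2rg, Tnfrsf18, Rgs1, Bcl2, Sesn1, Bnip3, Bnip3l, Ndufa6 and H2-T23. At an unadjusted p below 0.05 the counts were 416, 351 and 542, and without the fold threshold 385, 267 and 152. The cause of these shifts was not tested. At 2 libraries per group and a common biological coefficient of variation of 0.414, and with 61 tested genes at 0 counts in 72 h replicate 2, changes of low genes were measured with little precision.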

Other observations

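The Gimap genes, GTPases of lymphocyte survival encoded together on chromosome 6, were looked at after their values were seen. Of 8 tested, 7 (87.5%) were called higher at 72 h with IL-21 and 0 lower, against 8.76% of all tested genes called higher. Most of these calls were lost in at least 1 of the fits that left out a library. Their log2 fold changes had a median of 1.16, where that of all tested genes was 0.003. Gimap3 was at 37.3 and 36.2 RPKM at 24 h and 158 and 101 RPKM at 72 h (log2 fold change 2.16 ± 0.18 SE, adjusted p = 1.04e-04) and Gimap5 at 24.3 and 30.1 RPKM at 24 h and 79.3 and 100.1 RPKM at 72 h (log2 fold change 2.13 ± 0.25 SE, adjusted p = 3.71e-04), by edgeR's quasi-likelihood test. Without IL-21, Gimap3 was at 79.6 and 78.0 RPKM at 24 h and 102 and 118 RPKM at 72 h and Gimap5 at 47.3 and 41.4 RPKM at 24 h and 88.3 and 62.2 RPKM at 72 h. Both 72 h libraries lay above both 24 h libraries for either gene in either culture.

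Itgax, the integrin CD11c, was at 9.42 and 8.27 RPKM at 24 h and 34.6 and 20.8 RPKM at 72 h with IL-21 (log2 fold change 1.99 ± 0.35 SE, adjusted p = 0.00359) and at 15.9 and 11.97 RPKM at 24 h and 8.10 and 13.8 RPKM at 72 h without it. Itgax is 1 of 8 markers on the dendritic cell list, whose sum was 10.6 and 8.74 RPKM at 24 h and 38.8 and 22.5 RPKM at 72 h. Of the others, Flt3, Clec9a and H2-Aa had 0 counts in all 4 libraries with IL-21. H2-Ab1 was at 0.167 and 0.199 RPKM at 24 h and 2.50 and 0 RPKM at 72 h, Xcr1 at 0.0245 and 0.0807 RPKM and then 0.909 and 0.0787 RPKM, and H2-Eb1 at 0.783 and 0.0276 RPKM and then 0.369 and 1.69 RPKM. Zbtb46 was at most 0.337 RPKM. The part of such cells in the change of Itgax was not tested.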
